A study of Mus musculus with 16 samples.

Results

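The Ly6/uPAR family holds small surface proteins built from the LU domain, a compact fold of finger-like loops held together by cysteine bridges and usually tied to the membrane by a glycosylphosphatidylinositol (GPI) anchor. Much of the mouse family, Ly6d included, lies in a cluster on chromosome 15. The 7 genes described here are relatives whose genes lie elsewhere in the genome: Plaur, Lypd3, Lypd6b, Cd59a, Ly6g6c, Ly6g6d and Ly6g6e. They were taken by name, not by any measured value, though the choice was made with earlier results of these data known. All 7 were found under the same gene identifier in both deposited tables, which list 54532 genes. Family members with this fold do different jobs at the cell surface: Plaur is the receptor that gathers the protease urokinase, Cd59a blocks the membrane pore made by complement, and Lypd6b acts on acetylcholine receptors. In pancreatic and other carcinomas the urokinase receptor is known as a surface protein of invading cells.

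RNA was sequenced from KPC1199 cells, a mouse pancreatic cancer line, recovered by sorting from tumours that had grown in the pancreas. The groups were cells overexpressing Ly6d and WT cells, in a table of raw counts, and cells with high Ly6d and cells with low Ly6d, in a table of TPM, read counts scaled by gene length and library size, with 2 libraries in each group. The study set out to learn how Ly6d acts in the start and growth of pancreatic cancer. Tumour tissue samples of the series were not analysed here. How the overexpressing cells were made, whether they were 1 clone, and which tumours gave the Ly6d-high and Ly6d-low cells are not given in the sources used here. No label says that the libraries of a group came from separate animals, so p-values of the main tests measure the spread between these libraries, which may be technical. Tests of TPM without a Ly6d-low library, or with a block for replicate number, used a spread shared by genes of like level. Their p-values do not measure the spread of the gene itself. The overexpression columns of the count table carry the name given to overexpression tumours elsewhere in the labels, and their group was inferred from that name.

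Library totals ran from 15449241 to 18290325 counts in the count table and from 15063975 to 20509539 reads recovered from TPM. Ly6d was at 3380 and 3420 CPM, counts scaled by library size, in overexpression cells, against 1260 and 1070 CPM in WT cells. It was at 697 and 504 TPM in Ly6d-high cells, against 1.56 and 0.352 TPM in Ly6d-low cells, a difference that the sort itself set. The keratin gene Krt8, which marks epithelial cells, averaged 5014 ± 211 CPM in overexpression cells and 4392 ± 38.1 CPM in WT cells (SD, n = 2 each). Krt8 was at 12760 ± 147 TPM in Ly6d-high and 18000 ± 231 TPM in Ly6d-low cells (SD, n = 2 each), so epithelial mRNA was abundant in all 8 libraries. CPM and TPM are on separate scales here, and values of the count table were not tested against those of the TPM table.

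A shared stretch of the family can be read in the coding sequences, and it is shown because the members were grouped by family and not by expression. Near the end of an LU domain stand 2 cysteine codons, any 4 codons, a cysteine codon and an asparagine codon. In the longest coding transcript of each gene in GENCODE M21 this stretch was found, in frame, in 7 of 7 members. It was found in 63 of 22034 coding genes, or 0.286%. Capitals mark the cysteine and asparagine codons below, which are shared as amino acids and may differ in their last base. Lower case marks the 4 codons between them, which may be any.
Plaur, first copy: TGTTGCaactacacccacTGCAAT
Plaur, second copy: TGCTGCcacggcagcggcTGTAAC
Lypd3: TGCTGTcagggcccccgcTGTAAC
Lypd6b: TGCTGTgaaggaatgatcTGCAAC
Cd59a: TGCTGCcagtttaacttgTGTAAC
Ly6g6c: TGCTGTgacaaggataacTGTAAC
Ly6g6d: TGCTGTtttggagatctgTGCAAC
Ly6g6e: TGCTGTgagcaggacctaTGCAAT
Plaur carried 2 copies, at codons 191 and 287 of 326. Each of the other 6 carried 1 copy. These are counts of this stretch and not of LU domains.

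The genes lie on 3 chromosomes of GRCm38, the build that the tables' coordinates match. Plaur (ENSMUSG00000046223, chromosome 7, 24462484 to 24475968) and Lypd3 (ENSMUSG00000057454, chromosome 7, 24636550 to 24641118) are both on the plus strand of chromosome 7. Lypd6b (ENSMUSG00000026765, 49787688 to 49948849) and Cd59a (ENSMUSG00000032679, 104095801 to 104115354) are on the plus strand of chromosome 2. The other 3 members sit side by side on chromosome 17, in the class III region of the major histocompatibility complex (MHC). These are Ly6g6c (ENSMUSG00000092586, 35065388 to 35070050, plus strand), Ly6g6d (ENSMUSG00000073413, 35071443 to 35078065, minus strand) and Ly6g6e (ENSMUSG00000013766, 35076902 to 35078804, plus strand). All 7 are annotated as protein-coding.

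**Figure D1:**
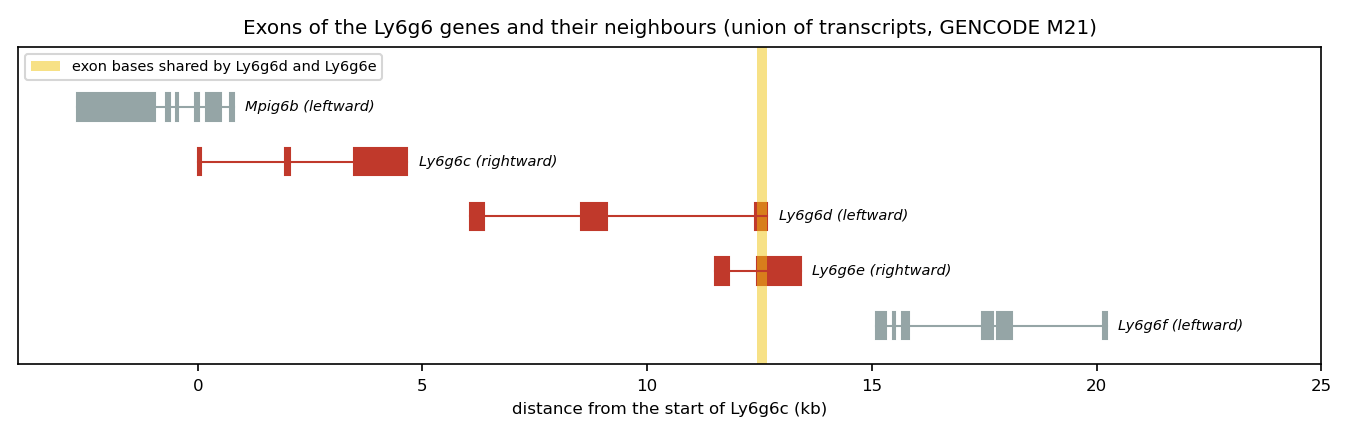
Exons of Ly6g6c, Ly6g6d and Ly6g6e (red) and of the neighbouring genes Mpig6b and Ly6g6f (grey), as distance from the start of Ly6g6c in kb; boxes are exons joined over all transcripts and the words in brackets give the direction of transcription. The yellow band marks the 229 exon bases that Ly6g6d and Ly6g6e share on opposite strands.

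Some of these genes overlap, which bears on every value given for them. Ly6g6d and Ly6g6e share 229 exon bases on opposite strands (chromosome 17, 35077837 to 35078065), which is 19.5% of the exon length of Ly6g6d and 18.0% of that of Ly6g6e. Ly6g6c shares 22 exon bases with Mpig6b on the other strand. Lypd3 shares 225 exon bases, 13.6% of its length, with the antisense gene Gm26550. Settings for strand in the counting were not given in the sources used here, so reads from such a stretch cannot be told apart. Cd59a has a near copy in the mouse, Cd59b, and counting may have split reads between them.

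Promoter windows of 250 bases before the start were taken from RefSeq (GRCm38.p6) for 5 of the 7 members; Lypd6b and Ly6g6e had no entry. The windows are shown for Plaur, which stood far above the others in level, and for Cd59a and Ly6g6c, which were higher in both Ly6d-high libraries. Ly6g6d was higher there too, but RefSeq gives it 3 starts and none of its windows is printed; 1 of them held the letters GGGCGG described next. Capitals mark matches to the motifs searched on both strands, which were AP-1 with the letters TGANTCA, the common TATA box with the letters TATAAA, the box of Sp1-type factors with the letters GGGCGG, whose matches may overlap, and the NF-kB motif.
Plaur, chr7:24462233-24462482, plus strand: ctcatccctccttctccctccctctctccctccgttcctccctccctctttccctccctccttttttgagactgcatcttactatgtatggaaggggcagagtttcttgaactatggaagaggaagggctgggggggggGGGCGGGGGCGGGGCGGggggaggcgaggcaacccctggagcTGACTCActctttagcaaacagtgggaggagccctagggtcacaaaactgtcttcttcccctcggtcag
Cd59a, chr2:104095551-104095800, plus strand: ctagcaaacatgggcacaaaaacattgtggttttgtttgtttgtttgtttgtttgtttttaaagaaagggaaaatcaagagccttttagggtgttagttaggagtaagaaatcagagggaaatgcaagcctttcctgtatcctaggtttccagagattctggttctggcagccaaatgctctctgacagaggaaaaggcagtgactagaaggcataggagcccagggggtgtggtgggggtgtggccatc
Ly6g6c, chr17:35067075-35067324, plus strand: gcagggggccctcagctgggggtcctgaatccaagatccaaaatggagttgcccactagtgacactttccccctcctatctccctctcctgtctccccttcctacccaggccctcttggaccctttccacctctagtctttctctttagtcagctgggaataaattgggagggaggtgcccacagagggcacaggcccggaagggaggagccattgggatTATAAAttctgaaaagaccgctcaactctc
The Plaur window held 1 AP-1 match, 69 bases before the start, and 3 matches to the letters GGGCGG. The start that RefSeq gives for Ly6g6c lies 1.94 kb inside the gene as placed above, where the second exon block of the map begins. That window held a TATA box match 30 bases before the RefSeq start, and the Cd59a window held none of the 4 motifs. Over 32851 RefSeq windows of the same length, 6.75% held the AP-1 letters, 1.41% the NF-kB motif, 12.4% the TATA box and 32.7% the letters GGGCGG. GC content was 59.6% in the Plaur window, 44.8% in that of Cd59a and 55.2% in that of Ly6g6c, beside a median of 52.4%. A match is a description of these letters only.

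Plaur stood apart from the other members in level in both tables. Per kb of exon, Plaur averaged 97.2 CPM over the 4 libraries of the count table, above 98.0% of the 25175 genes detected there. In the TPM table it averaged 400 TPM, above 98.6% of 26237 detected genes. The other 6 members averaged 0.153 to 1.53 CPM per kb and 0.587 to 4.14 TPM, in the middle or lower part of the detected genes.

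The order of the others depended on the cells. In the count table Lypd6b came next (1.53 CPM per kb), and its lowest library lay above the highest library of Cd59a (0.632 CPM per kb on average). Below that, Cd59a, Ly6g6d, Lypd3, Ly6g6c and Ly6g6e followed with library ranges that overlapped from each gene to the next. In Ly6d-low cells Lypd6b was again next to Plaur, at 5.38 ± 0.214 TPM, and Lypd3, Ly6g6d and Cd59a followed with overlapping ranges. Ly6g6c and Ly6g6e were lowest there, at 0.169 ± 0.104 and 0.168 ± 0.0535 TPM, and their ranges overlapped. In Ly6d-high cells Cd59a came next to Plaur, at 6.59 ± 2.31 TPM, then Ly6g6e at 4.88 ± 1.55 TPM and Ly6g6d at 4.56 ± 0.467 TPM (SD, n = 2 for each). The ranges of Cd59a, Ly6g6e and Ly6g6d overlapped from one to the next and lay above those of Lypd3, Lypd6b and Ly6g6c in every Ly6d-high library.

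**Figure D2:**
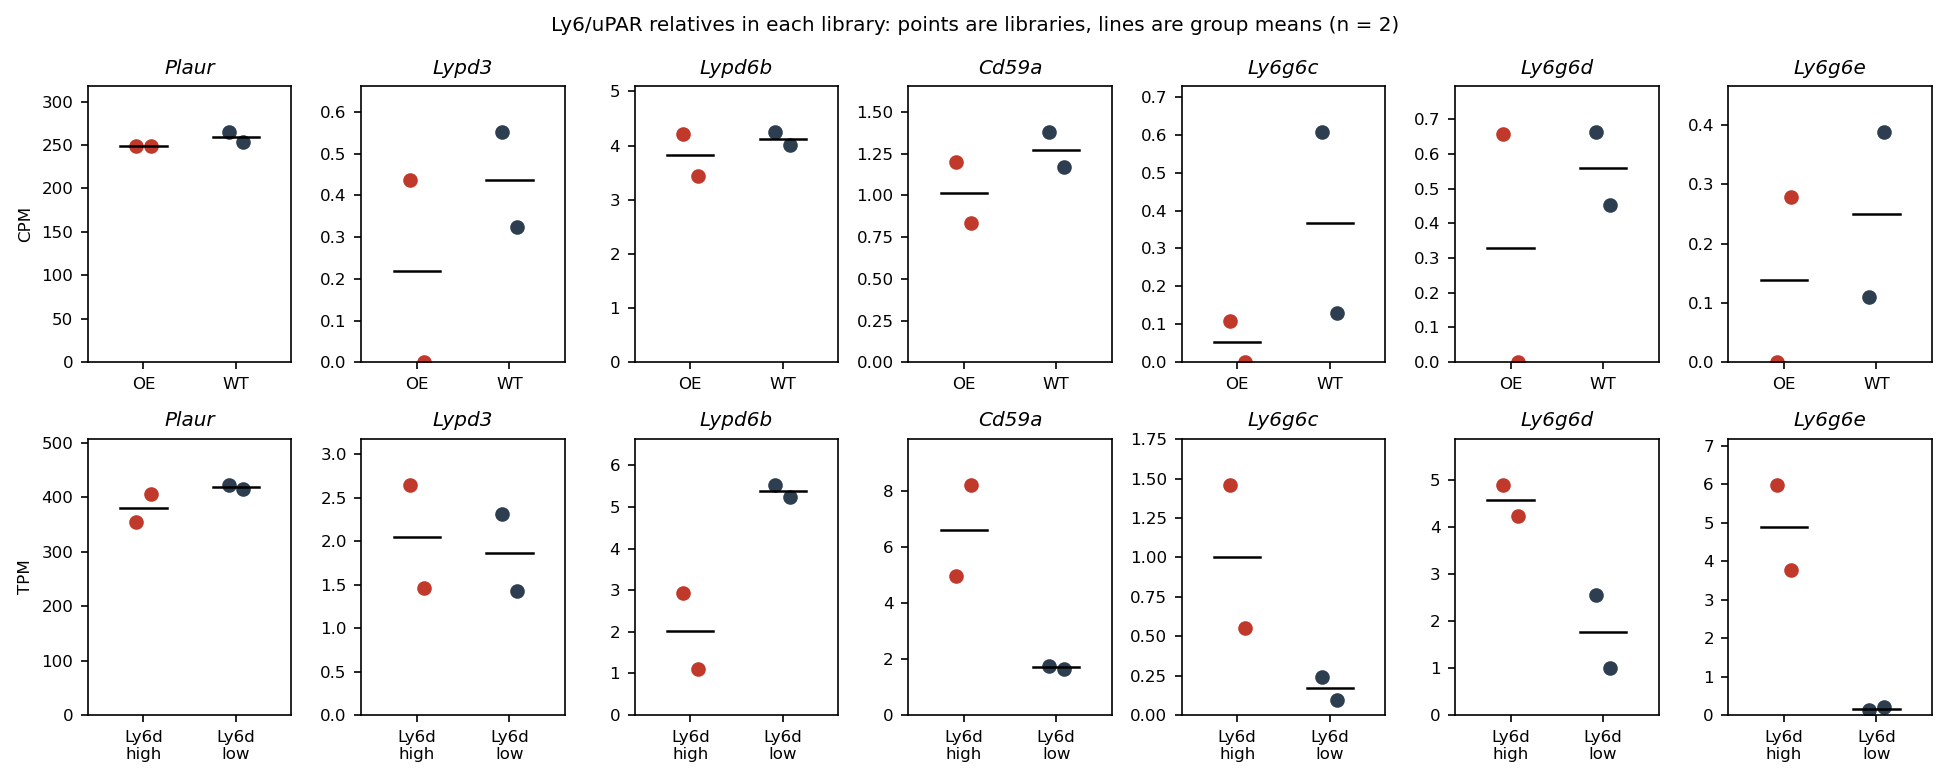
Level of each member in every library, in CPM (upper row, overexpression OE left of WT) and in TPM (lower row, Ly6d-high left of Ly6d-low); points are libraries, lines are means of 2 libraries, and each panel has its own axis from 0. In the lower row Cd59a, Ly6g6c, Ly6g6d and Ly6g6e are higher and Lypd6b is lower in both Ly6d-high libraries.

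Overexpression of Ly6d left no member past the threshold. Plaur, the receptor for urokinase, was at 249 CPM or more in every library, and the other 6 members were at 4.25 CPM or less. Of the 7, Plaur, Lypd6b, Cd59a and Ly6g6d had enough counts to be tested with edgeR, and 0 of these 4 passed a Benjamini-Hochberg adjusted p of 0.05, beside 4.16% of all 15771 genes tested (656 genes, 2.32% higher and 1.84% lower). None of the 4 had an unadjusted p under 0.05 either, the lowest being 0.236, and DESeq2 called 0. The count of 656 was 1584 without overexpression replicate 1 and 1062 without overexpression replicate 2. In 2 of the 7 members, Plaur and Ly6g6c, the groups did not overlap, both being lower in overexpression cells. Of the 25175 genes detected, 39.1% did not overlap, 18.4% being higher and 20.7% lower.

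Plaur had 249 and 249 CPM in overexpression cells, against 265 and 254 CPM in WT cells. Both overexpression libraries lay just below both WT libraries. The log2 fold change was -0.08 ± 0.06 (SE, edgeR quasi-likelihood adjusted p = 0.585) on 3929 to 4804 counts per library.

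Lypd3, a paralogue of Plaur that binds laminins and the secreted proteins Agr2 and Agr3, had 0.437 and 0 CPM in overexpression cells, against 0.552 and 0.324 CPM in WT cells. These values rest on 8 and 0 counts in overexpression cells, and on 10 and 5 counts in WT cells. The groups overlapped, and Lypd3 did not pass the count filter and was not tested. A count of 0 allowed up to 0.167 CPM in that library, taking 3 counts as the limit.

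Lypd6b had 4.21 and 3.44 CPM in overexpression cells, against 4.25 and 4.01 CPM in WT cells. The groups overlapped, with a log2 fold change of -0.13 ± 0.35 (SE, edgeR adjusted p = 0.899). Cd59a had 1.2 and 0.833 CPM in overexpression cells, against 1.38 and 1.17 CPM in WT cells. Here too the groups overlapped, and the log2 fold change was -0.34 ± 0.69 (SE, edgeR adjusted p = 0.858). It ran from -0.63 without overexpression replicate 1 to -0.11 without overexpression replicate 2.

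The 3 genes of the MHC class III region were near the limit of detection. Ly6g6d, known in human colorectal tumours as a surface antigen, had 0.656 and 0 CPM in overexpression cells, against 0.663 and 0.453 CPM in WT cells. Its log2 fold change of -0.77 ± 1.22 (SE, edgeR adjusted p = 0.813) turned to 0.20 without overexpression replicate 2, the library with no count. Ly6g6c had 0.109 and 0 CPM in overexpression cells, against 0.607 and 0.129 CPM in WT cells, from 2 and 13 counts in all. The ratio of these sums was 0.142, with a 95% counting interval of 0.0156 to 0.628, which covers counting error only and not the spread between libraries. Ly6g6e had 0 and 0.278 CPM in overexpression cells, against 0.110 and 0.388 CPM in WT cells, and the groups overlapped. Neither Ly6g6c nor Ly6g6e passed the count filter, and neither was tested.

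In cells sorted for high Ly6d, Cd59a, the inhibitor of the complement pore, and Ly6g6e were higher than in cells sorted for low Ly6d. Lypd6b was lower and Ly6g6d and Ly6g6c were higher in both Ly6d-high libraries without passing the test or, for Ly6g6c, without being tested. For Plaur and Lypd3 the mean TPM differed by less than 0.2 on the log2 scale without passing the test. In bulk RNA such as this, fewer cells of a type and less RNA per cell cannot be told apart.

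Of the 7 members, 6 were tested with limma on log2(TPM + 1), and 2 of the 6 passed an adjusted p of 0.05, both higher, beside 8.64% higher and 1.17% lower among all 14625 genes tested (9.81% in either direction). Of these 2, Ly6g6e, reached the filter through the Ly6d-high libraries alone and had to differ to be tested, so Cd59a is the call to read against that share. Among all genes called, 472 of 1435 (32.9%) reached the filter through 1 group alone. Lypd6b and Ly6g6d, not called, had an unadjusted p under 0.05. Here and below, such counts have no share of all genes beside them and are not read as a result. The share of all genes called higher depended on the scaling, since the median log2 difference of all genes was 0.25 in TPM and 0.01 with TMM factors. There were 1264 genes higher and 171 lower in TPM. With TMM factors 702 (4.8%) were higher and 246 (1.68%) lower, 6.48% in all, and 2 members passed, Cd59a and Ly6g6e. With edgeR on the recovered reads 1224 (8.01%) were higher and 591 (3.87%) lower, 11.9% in all, and 3 members passed, these 2 and Plaur. The total of 1435 in TPM was 931 without Ly6d-low replicate 1 and 6710 without Ly6d-high replicate 1. In 6 of the 7 members the groups did not overlap, as in 48.8% of the 26237 genes detected. Of these, 4 were higher, as were 39.5% of all genes, and 2 were lower, as were 9.27%.

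**Figure D3:**
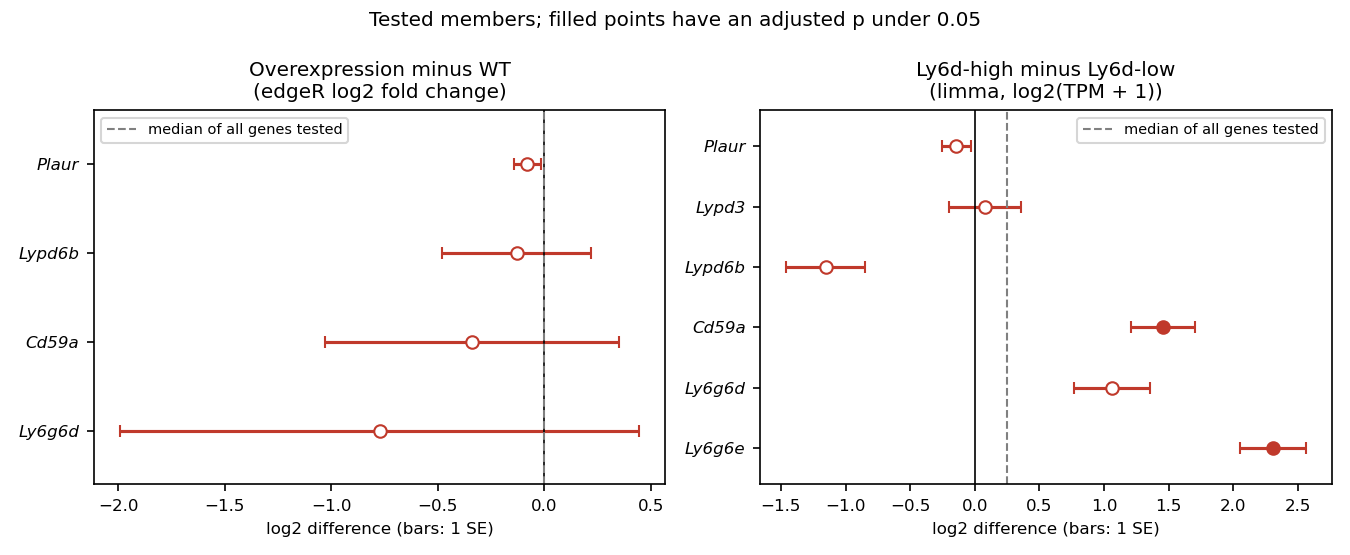
Log2 difference of each tested member, overexpression minus WT by edgeR (left) and Ly6d-high minus Ly6d-low by limma on log2(TPM + 1) (right); bars are 1 SE, filled points have an adjusted p under 0.05, and the dashed line is the median of all genes tested. Cd59a at 1.46 and Ly6g6e at 2.31 are the filled points, and Lypd6b at -1.15 lies on the other side of 0.

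Cd59a had 4.96 and 8.22 TPM in Ly6d-high cells, against 1.74 and 1.66 TPM in Ly6d-low cells. Both Ly6d-high libraries were well above both Ly6d-low libraries, from 72 and 99 reads in Ly6d-high and 19 and 23 reads in Ly6d-low cells. The means, 6.59 ± 2.31 and 1.70 ± 0.0525 TPM (SD, n = 2 each), differed 3.88-fold. On the log2(TPM + 1) scale the means differed by 1.46 ± 0.25 (SE; adjusted p = 0.0136, limma), or 1.21 above the median of all genes. It stayed past the threshold with TMM factors (1.25, limma adjusted p = 0.0367) and with edgeR on the recovered reads (1.64, adjusted p = 0.0199), and missed it with no filter on low values (limma adjusted p = 0.103). Its near copy Cd59b was at 0.671 and 0.347 TPM in Ly6d-high cells, against 0.255 and 0 TPM in Ly6d-low cells, and was not tested.

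Ly6g6e, known to act on nicotinic acetylcholine receptors, had 5.98 and 3.78 TPM in Ly6d-high cells, against 0.130 and 0.206 TPM in Ly6d-low cells. It was almost absent from Ly6d-low cells, with 1 and 2 reads there and 61 and 32 reads in Ly6d-high cells. Scaled by depth, the ratio of summed reads was 27.4, with a 95% counting interval of 9.1 to 135. On the log2(TPM + 1) scale Ly6g6e differed by 2.31 ± 0.26 (SE; adjusted p = 0.00201, limma). The filter of 1 TPM was met in the Ly6d-high libraries alone. Without either Ly6d-high library it no longer passed that filter and has no value.

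Ly6g6d, on the opposite strand of Ly6g6e, had 4.89 and 4.23 TPM in Ly6d-high cells, against 2.54 and 1 TPM in Ly6d-low cells. The groups did not overlap, though the Ly6d-low libraries lay far apart. On the log2(TPM + 1) scale the difference of 1.06 ± 0.30 missed the threshold (SE; adjusted p = 0.0676, limma). The difference was 1.47 without Ly6d-low replicate 1 and 0.65 without Ly6d-low replicate 2. Because of the shared exon bases, how many of the 79 reads of Ly6g6d in Ly6d-high cells and 27 in Ly6d-low cells came from Ly6g6e cannot be told apart.

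Ly6g6c, the remaining gene of that cluster, had 1.46 and 0.550 TPM in Ly6d-high cells, against 0.242 and 0.0957 TPM in Ly6d-low cells. Both Ly6d-high libraries were higher, from 21 reads in Ly6d-high cells and 3 reads in Ly6d-low cells in all. Ly6g6c did not pass the filter and was not tested. Scaled by depth, the ratio of summed reads was 6.19, with a 95% counting interval of 1.85 to 32.4.

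Lypd6b had 2.92 and 1.10 TPM in Ly6d-high cells, against 5.53 and 5.23 TPM in Ly6d-low cells. The Ly6d-low libraries agreed closely, and both Ly6d-high libraries were below them by unequal amounts. Lypd6b differed by -1.15 ± 0.31 on the log2(TPM + 1) scale (SE; adjusted p = 0.0601, limma), just outside the threshold. The difference was -1.60 without Ly6d-high replicate 1 and -0.70 without Ly6d-high replicate 2. It was -1.12 without Ly6d-low replicate 1 and -1.19 without Ly6d-low replicate 2.

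Plaur had 355 and 406 TPM in Ly6d-high cells, against 423 and 416 TPM in Ly6d-low cells. The Ly6d-high libraries were both lower, by little. The difference of -0.14 ± 0.11 did not pass on the log2(TPM + 1) scale (SE; adjusted p = 0.415, limma). It was -0.05 without Ly6d-high replicate 1 (adjusted p = 0.556) and -0.24 without Ly6d-high replicate 2 (adjusted p = 0.0611), both by limma. With edgeR on the recovered reads it was -0.44 ± 0.09 and passed (SE, adjusted p = 0.0233), and with TMM factors it was -0.42 and did not (limma adjusted p = 0.0686).

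Lypd3 had 2.65 and 1.46 TPM in Ly6d-high cells, against 2.31 and 1.43 TPM in Ly6d-low cells. The groups overlapped, and each held 1 higher and 1 lower library. Lypd3 differed by 0.08 ± 0.28 on the log2(TPM + 1) scale (SE; adjusted p = 0.86, limma). Its sign turned with TMM factors (-0.10) and with edgeR on the recovered reads (-0.10).

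**Figure D4:**
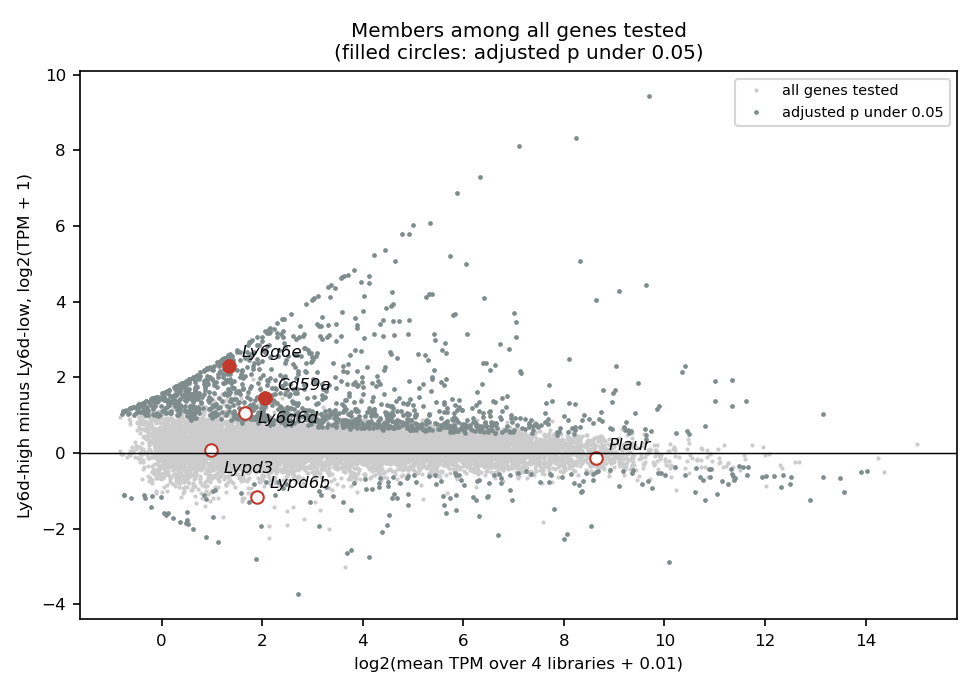
Difference between Ly6d-high and Ly6d-low cells on the log2(TPM + 1) scale against mean level, as log2(mean TPM + 0.01), for the 14625 genes tested; dark dots have an adjusted p under 0.05 and circles are members, filled where the adjusted p is under 0.05. Plaur lies far to the right of the other 5 tested members, and Ly6g6e and Cd59a lie among the called genes above 0.

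Markers of other cells differed between the same groups. Of all genes tested, 2.32% were called higher and 1.84% lower in overexpression cells. In Ly6d-high cells these shares were 8.64% and 1.17%. In overexpression cells all 6 pan-leukocyte genes tested were higher (summed level 58.77 and 62.22 CPM in overexpression cells, against 14.25 and 10.81 CPM in WT cells). Neutrophil genes were higher for 6 of 8 (171.4 and 183.5 CPM in overexpression cells, against 55.22 and 54.31 CPM in WT cells), macrophage genes for 6 of 10 (237.4 and 240.2 CPM in overexpression cells, against 84.93 and 87.45 CPM in WT cells), B and plasma cell genes for 2 of 3 (82.89 and 82.38 CPM in overexpression cells, against 7.621 and 6.084 CPM in WT cells) and fibroblast genes for 2 of 8 (6227 and 6199 CPM in overexpression cells, against 5230 and 5806 CPM in WT cells). Of these, the neutrophil genes Camp, Ngp and Retnlg reached the count filter through the overexpression libraries alone. Acinar genes were lower for 8 of 8 (1265 and 1383 CPM in overexpression cells, against 17680 and 18050 CPM in WT cells), islet genes for 6 of 6 (576.2 and 624.3 CPM in overexpression cells, against 1354 and 1197 CPM in WT cells) and endothelial genes for 6 of 8 (148.8 and 179.7 CPM in overexpression cells, against 297.9 and 292.5 CPM in WT cells). For T cells 0 of 2 tested genes passed with edgeR, 1 having an unadjusted p under 0.05 and DESeq2 calling 0, and 1 of 8 epithelial genes was lower.

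In Ly6d-high cells the widest ratio among the summed marker lists was in B and plasma cell genes, with summed levels of 89.42 and 75.97 TPM in Ly6d-high cells, against 2.897 and 1.198 TPM in Ly6d-low cells. The genes called were 2 of 3, Jchain and Mzb1 of antibody-secreting cells, while the B cell gene Ms4a1 was at 0 in both Ly6d-high libraries. Pan-leukocyte genes were higher for 3 of 5 tested (18.62 and 11.5 TPM in Ly6d-high cells, against 3.697 and 4.694 TPM in Ly6d-low cells). These 5 calls concern genes that reached the filter through the Ly6d-high libraries alone. Macrophage genes were higher for 4 of 7 (206.7 and 198.4 TPM in Ly6d-high cells, against 70.77 and 67.28 TPM in Ly6d-low cells), T cell genes for 1 of 2 (10.68 and 8.086 TPM in Ly6d-high cells, against 6.565 and 5.491 TPM in Ly6d-low cells) and acinar genes for 6 of 8 (9420 and 8932 TPM in Ly6d-high cells, against 3911 and 3952 TPM in Ly6d-low cells). With edgeR on the recovered reads 5 of 8 acinar genes were higher and 1 lower. Neutrophil genes summed to 161.4 and 196.6 TPM in Ly6d-high cells, against 61.26 and 63.45 TPM in Ly6d-low cells, with 1 of 2 tested genes higher. Most of that sum was Ltf, which encodes lactoferrin (156 and 193 TPM in Ly6d-high cells, against 59.7 and 61.5 TPM in Ly6d-low cells), and 1 of the 10 listed genes, Camp, was at 0 in all 4 libraries. Islet genes were lower for 4 of 6 (388.2 and 348.6 TPM in Ly6d-high cells, against 738.2 and 705.7 TPM in Ly6d-low cells), and of 8 epithelial genes 2 were higher and 4 lower. With limma 0 of 6 endothelial genes passed (99.48 and 126.8 TPM in Ly6d-high cells, against 78.27 and 85.94 TPM in Ly6d-low cells) and 0 of 7 fibroblast genes (403.7 and 484 TPM in Ly6d-high cells, against 390.8 and 398.3 TPM in Ly6d-low cells). An unadjusted p under 0.05 was found for 1 and 2 of these, and edgeR on the recovered reads called 0 in both lists. Cd59a and the Ly6g6 genes were higher in the same libraries as the summed levels of the leukocyte, plasma cell, macrophage and acinar genes. The part of these cells in the members' values was not tested.

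The partners of Plaur in plasminogen activation mostly did not pass the test. Of 17 tested genes, 1 was higher and 1 lower in overexpression cells, beside 2.32% higher and 1.84% lower of all genes, with a median log2 fold change of 0.08, beside -0.001 for all genes. In Ly6d-high cells 3 were higher and 1 lower of 15 tested, beside 8.64% higher and 1.17% lower of all genes, with a median difference of 0.34, beside 0.25 for all genes.

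Plau itself, the urokinase that Plaur binds, had 52.2 and 45.7 CPM in overexpression cells, against 40.4 and 42.2 CPM in WT cells. Both overexpression libraries were higher, with a log2 fold change of 0.23 that did not pass (edgeR adjusted p = 0.33). It had 1.58 and 0.572 TPM in Ly6d-high cells, against 0.909 and 1.44 TPM in Ly6d-low cells, and these overlapped (limma adjusted p = 0.84). In the TPM table Plaur was thus at 355 TPM or more and Plau at 1.58 TPM or less in every library.

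Hpn, the membrane protease hepsin, which can activate urokinase, passed in both comparisons and in opposite directions. It had 5.96 and 7 CPM in overexpression cells, against 23.7 and 22.1 CPM in WT cells, a log2 fold change of -1.84 ± 0.19 (SE, edgeR adjusted p = 0.000143). It had 41.4 and 51.2 TPM in Ly6d-high cells, against 1.49 and 1.44 TPM in Ly6d-low cells, a difference of 4.26 ± 0.18 (SE, limma adjusted p = 2.91e-05). The groups did not overlap in either table, and the difference between the comparisons was not tested. St14, the related membrane protease matriptase, had 26.0 and 38.0 TPM in Ly6d-high cells, against 6.63 and 8.76 TPM in Ly6d-low cells (difference 1.91, limma adjusted p = 0.00274). Anxa2, a surface receptor for plasminogen, was lower in Ly6d-high cells at 3850 and 3520 TPM, against 5590 and 5590 TPM in Ly6d-low cells (limma adjusted p = 0.0046, and 0.0542 with TMM factors).

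Vtn, the matrix protein vitronectin that Plaur also binds, had 3.69 and 6.15 TPM in Ly6d-high cells, against 0.652 and 1.10 TPM in Ly6d-low cells (difference 1.64, limma adjusted p = 0.0119). Lrp1, the receptor that takes up the urokinase complex, had 1000 and 935 CPM in overexpression cells, against 755 and 801 CPM in WT cells. Its log2 fold change of 0.30 passed (edgeR adjusted p = 0.04), but not without overexpression replicate 1 (0.136) or replicate 2 (0.0523).

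Among integrins, receptors and other proteins that act with Plaur, 2 of 11 tested genes were higher in overexpression cells. Their median log2 fold change was 0.22, beside -0.001 and 2.32% called higher for all genes. In Ly6d-high cells 1 of 9 was higher (median 0.41, beside 0.25 and 8.64% for all genes). An unadjusted p under 0.05 was found for 8 of the 11 with edgeR and for 5 of the 9 with limma. The share of all genes with such a p is not given here, so these counts have no background. DESeq2 called 3 higher, and edgeR on the recovered reads called 1 higher. Fn1, the matrix protein fibronectin, had 12700 and 12300 CPM in overexpression cells, against 9630 and 10100 CPM in WT cells, a log2 fold change of 0.32 (edgeR adjusted p = 0.00572, and 0.0576 without overexpression replicate 1). Itgb2, the integrin beta chain of leukocytes, had 11.2 and 11.8 CPM in overexpression cells, against 4.36 and 2.98 CPM in WT cells (edgeR adjusted p = 0.00572). It had 2 and 3.1 TPM in Ly6d-high cells, against 0.651 and 0.557 TPM in Ly6d-low cells (limma adjusted p = 0.0342, and 0.0587 with TMM factors), and reached the filter of 1 TPM through the Ly6d-high libraries alone. Itgb2 is also on the pan-leukocyte list above.

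For Cd59a the partners are genes of the late complement pathway, together with C3 and regulators of complement. In overexpression cells 1 of 10 tested genes was lower, beside 1.84% of all genes, with a median log2 fold change of -0.06. In Ly6d-high cells 4 of 8 were higher, beside 8.64% of all genes, with a median difference of 0.61, beside 0.25 for all genes. These 4 were C3, Cfi, Clu and Vtn, the last described above, and none of them is a part of the pore itself. C3, the central complement protein, had 225 and 261 TPM in Ly6d-high cells, against 20.5 and 21.7 TPM in Ly6d-low cells (difference 3.46, limma adjusted p = 2.66e-05). Cfi, the protease that cuts active C3, had 97.1 and 121 TPM in Ly6d-high cells, against 49.7 and 50.3 TPM in Ly6d-low cells (difference 1.10, limma adjusted p = 0.00518).

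Clu, a soluble inhibitor of the same pore as Cd59a, had 12200 and 12200 TPM in Ly6d-high cells, against 5970 and 6010 TPM in Ly6d-low cells (difference 1.03, limma adjusted p = 0.000166, and 0.0618 with TMM factors). Clu was also the gene that was lower in overexpression, at 2120 and 2170 CPM in overexpression cells, against 2760 and 2590 CPM in WT cells. That log2 fold change of -0.33 passed (edgeR adjusted p = 0.0105) but not without overexpression replicate 1 (0.062). C9, whose polymer forms the pore and which Cd59a binds, was at 0.273 and 0 CPM in overexpression cells, against 0.387 and 0 CPM in WT cells. It was listed at 0 in both Ly6d-high libraries, and at 0.0647 and 0 TPM in Ly6d-low cells.

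**Figure D5:**
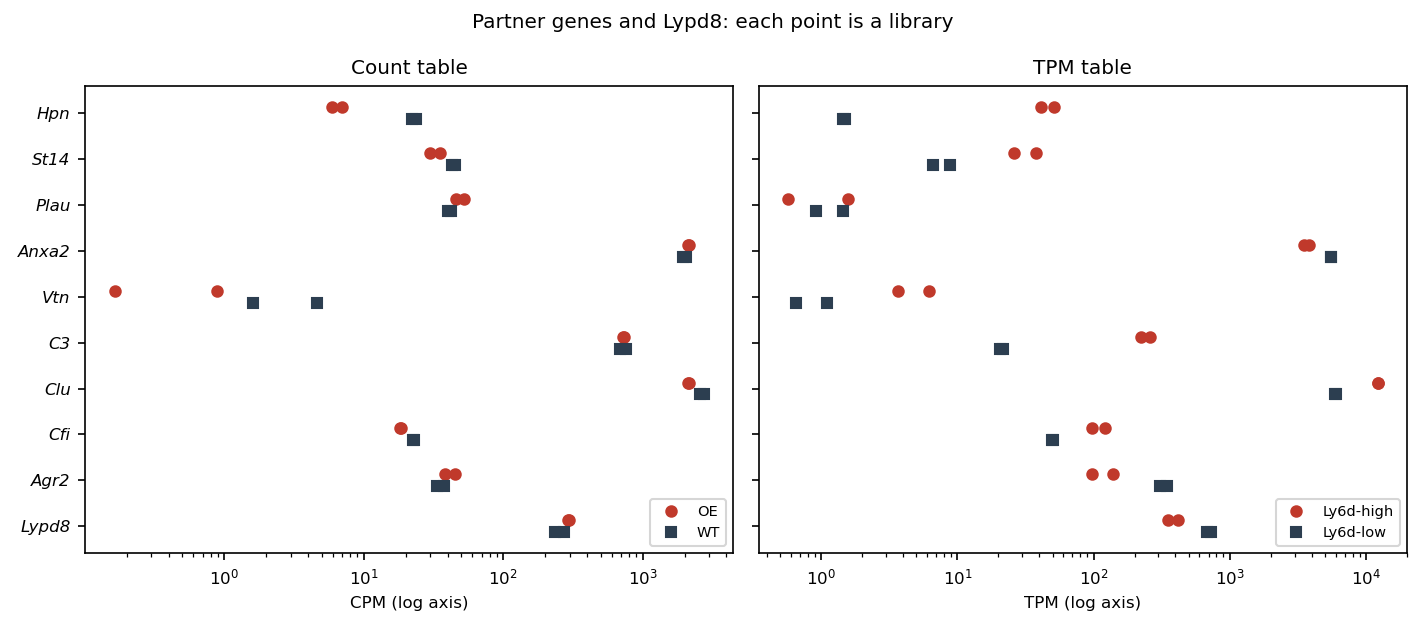
Level of partner genes and of the relative Lypd8 in each library on log axes, in CPM (left, overexpression OE above WT within each gene) and in TPM (right, Ly6d-high above Ly6d-low); circles and squares are libraries. Hpn lies lower in overexpression than in WT cells and higher in Ly6d-high than in Ly6d-low cells.

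Among the ligands and adhesion partners of Lypd3, 0 of 7 tested genes passed with edgeR in overexpression cells, where 1 had an unadjusted p under 0.05 and DESeq2 called 0. In Ly6d-high cells 1 of 7 was lower with limma, beside 1.17% of all genes. With edgeR on the recovered reads 5 of 7 were lower, beside 3.87% of all genes. The median was 0.04 in overexpression and -0.30 in Ly6d-high cells, beside -0.001 and 0.25 for all genes. The gene limma called was Agr2, a secreted disulfide isomerase that binds Lypd3. Agr2 had 140 and 98 TPM in Ly6d-high cells, against 349 and 309 TPM in Ly6d-low cells, a difference of -1.48 ± 0.18 (SE, limma adjusted p = 0.00313). Both Ly6d-high libraries were far below both Ly6d-low libraries, while Lypd3 itself overlapped. In overexpression cells Agr2 had 44.9 and 38.6 CPM, against 37.7 and 33.4 CPM in WT cells (edgeR adjusted p = 0.426).

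Nicotinic receptor subunits and Wnt coreceptors, on which Lypd6b and its close relatives act, were mostly low. Of 12 genes, 4 were tested in the count table and 3 in the TPM table, and 0 passed in either. An unadjusted p under 0.05 was found for 2 with edgeR and for 1 with limma, while DESeq2 and edgeR on the recovered reads called 0. Their median was 0.05 in overexpression and 0.17 in Ly6d-high cells.

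None of the genes that make the GPI anchor itself passed. Of 23 tested genes for anchor synthesis and transfer, 0 passed with edgeR in overexpression cells, where 3 had an unadjusted p under 0.05 and DESeq2 called 0. With limma 0 of 23 passed in Ly6d-high cells, where 7 had an unadjusted p under 0.05 and edgeR on the recovered reads called 1. The share of all genes with an unadjusted p under 0.05 is not given here either. Their median was 0.03 in overexpression and 0.17 in Ly6d-high cells, beside -0.001 and 0.25 for all genes. Of the genes for anchor remodelling, sorting and release, 1 of 13 was higher in overexpression cells, beside 2.32% of all genes. In Ly6d-high cells 1 of 12 was lower, beside 1.17% of all genes. The first was Ace, a peptidase reported to release GPI-anchored proteins, at 272 and 294 CPM in overexpression cells, against 198 and 208 CPM in WT cells (log2 fold change 0.46, edgeR adjusted p = 0.00346). The other was the cargo receptor Tmed9, at 79.5 and 77.2 TPM in Ly6d-high cells, against 115 and 121 TPM in Ly6d-low cells (limma adjusted p = 0.0297). Tmed9 lost the call without either Ly6d-low library, with adjusted p of 0.41 and 0.424.

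The neighbours of Ly6g6c, Ly6g6d and Ly6g6e in the MHC class III region mostly did not pass. In overexpression cells 0 of 16 tested neighbours passed with edgeR, where 2 had an unadjusted p under 0.05 and DESeq2 called 2 lower, with a median log2 fold change of 0.006. In Ly6d-high cells 2 of 13 were higher, beside 8.64% of all genes, with a median difference of 0.27, beside 0.25 for all genes and 2.31 for Ly6g6e. These were the kinase subunit Csnk2b (185 and 205 TPM in Ly6d-high cells, against 126 and 142 TPM in Ly6d-low cells, limma adjusted p = 0.0451) and the heat shock gene Hspa1a (675 and 828 TPM in Ly6d-high cells, against 494 and 486 TPM in Ly6d-low cells, limma adjusted p = 0.026). Both lost the call with TMM factors (adjusted p of 0.165 and 0.121) and without either Ly6d-low library. With edgeR on the recovered reads neither passed, and 1 other neighbour was lower.

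Of 17 further Ly6/uPAR genes outside chromosome 15, few were expressed: 6 were at 0 in all libraries of each table, 5 were tested in the count table and 1 in the TPM table. A single one passed in each comparison, and both are named after their values were seen. Cd177, a surface glycoprotein of neutrophils, had 4.70 and 4.06 CPM in overexpression cells, against 0.221 and 0.259 CPM in WT cells (log2 fold change 4.14, edgeR adjusted p = 0.00218), beside the neutrophil sums above. It reached the count filter through the overexpression libraries alone, with 86 and 73 counts there and 4 and 4 counts in WT cells. In the TPM table Cd177 was at or near 0. Lypd8, a GPI-anchored protein of the colon epithelium, had 417 and 350 TPM in Ly6d-high cells, against 727 and 685 TPM in Ly6d-low cells, a difference of -0.88 ± 0.12 (SE, limma adjusted p = 0.00498). Of these 17 genes, Lypd8 was the only one at such levels. In Ly6d-low cells it lay above Plaur, which had 423 and 416 TPM there. In the count table Lypd8 had 294 and 296 CPM in overexpression cells, against 272 and 237 CPM in WT cells (edgeR adjusted p = 0.185).

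The genes nearest to each member in pattern were sought over the 8 libraries among 11918 protein-coding genes tested in both tables, by the root mean square distance of centred log2 values. Plaur lay closest to Tbc1d31 (0.0185), Hnrnpk (0.0245) and Tagln2 (0.025), beside a median distance of 0.212. Cd59a lay closest to Fndc4 (0.121), Rab32 (0.124) and Zbtb20 (0.131), beside a median of 0.5. For Lypd6b these were Rpl30 (0.169), Tmsb4x (0.172) and S100a6 (0.181), beside a median of 0.6, and for Ly6g6d they were Fam81a (0.239), Fgf18 (0.253) and Lrrc10b (0.299), beside a median of 1.15. Plaur itself varied little over the 8 libraries, and libraries within a table share their scaling.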

How the data were processed

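For sorted overexpression and WT cells the authors deposited whole-number counts per gene. For Ly6d-high and Ly6d-low cells they deposited TPM, scaled by gene length and library total. Per the submitters' processing notes, fastp, HISAT2, featureCounts and DESeq2 were used with build mm9, without versions. The tables' coordinates are those of GRCm38: of 54409 genes found in GENCODE M21, 98.3% matched. TPM times gene length gave whole reads for 100% of 85643 values, within 0.1 reads. WT columns were matched by sample title and overexpression columns by a library name of overexpression tumours. The count table has 2 more library columns whose names fit no label, and these were left out.

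The test of counts was the quasi-likelihood test of edgeR 4.0.16 (R 4.3.3) after filterByExpr and TMM. Its standard errors were derived from the fold change and F. For TPM, limma-trend (limma 3.58.1) was run on log2(TPM + 1), which understates changes of low genes. A gene needed 1 TPM in 2 or more of the 4 libraries. P-values were adjusted over all genes tested, with a threshold of 0.05. Both tests were run on simulated counts of the overexpression design, turned into TPM for limma. A pass mark was set for edgeR alone, and the simulation held no shift of all genes like that in TPM. Alternatives were DESeq2 1.42.0, other scalings, filters and pseudocounts, edgeR on the recovered reads, a replicate block and leaving out each library. Counting intervals are exact and cover counting error only. Sequences came from GENCODE M21 and RefSeq, and motifs were searched in Python 3.11.15. In every comparison the text names all members, up to 4 genes per partner list past the threshold with the lowest p, and Plau, Agr2, C9 and Cd59b whatever their values; 1 further gene of that rule is not reported here. Members and lists were chosen with earlier results of these data known.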

Additional observations from a re-analysis of the deposited data

How the results depend on the processing

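Of the members' calls, 0 in overexpression against WT held under every alternative run. The 2 calls in Ly6d-high against Ly6d-low cells were 1 with no filter on low values (Cd59a missing at 1.46, limma adjusted p = 0.103). They were 1 with a filter of 5 TPM (Lypd6b at -1.15, limma adjusted p = 0.0225), where Cd59a and Ly6g6e were dropped. With a replicate block they were 4, adding Lypd6b (-1.15) and Ly6g6d (1.06). Of all genes, 531 of 26237 were called with no filter and 1433 of 9788 with the filter of 5 TPM. The block called 4179 of 14625, beside 1435 of 14625 in the main run. Lypd6b met the filter of 5 TPM through the Ly6d-low libraries alone (5.53 and 5.23 TPM) and had to be higher there to be tested. Same-numbered libraries deviated together only weakly (correlations of 0.002 and 0.068), so the numbers were not taken as pairs. The block also moved the partner calls in Ly6d-high cells to 36. Plaur reached -0.44 with edgeR on the recovered reads, and Lypd3 turned to -0.10 with these and with TMM factors. Genes called in Ly6d-high cells were 531 with no filter and 948 with TMM factors, and in overexpression cells 1187 with no filter. Partner calls, 7 in overexpression and 13 in Ly6d-high cells, were 15 and 5 with no filter. Leaving out 1 library gave 565 to 1584 genes and 10 to 12 partners called in overexpression, and 931 to 6710 genes and 9 to 48 partners in Ly6d-high cells. Over the same settings Cd59a ran from -0.63 to -0.11 in overexpression and Plaur from -0.24 to -0.05 in Ly6d-high cells, while Lypd6b ran from -0.28 to 0.00 and Ly6g6d from -6.29 to 0.20 in overexpression, Lypd3 from -0.20 to 0.36, Lypd6b from -1.60 to -0.70 and Ly6g6d from 0.65 to 1.47 in Ly6d-high cells. The cause was not tested. A library at 0 decides the Ly6g6d value, and depth limits Lypd3 and the Ly6g6 genes, which had 0 to 12 counts per library in the count table.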
